A study of Mus musculus with 12 samples.

Results

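The accessible chromatin around 38 genes of immune cells was examined in brown adipose tissue (BAT) and inguinal white adipose tissue (iWAT) of mice lacking BAF60a in adipocytes. The genes were the chemokine receptor gene Cxcr4, the pan-leukocyte gene Ptprc, and markers or regulators of B cells, T cells, antigen-presenting cells and myeloid cells. Every ATAC-seq peak that the deposited tables assign to one of these symbols was taken, which gave 79 of 58558 peaks in BAT, at 20 of the 38 genes, and 49 of 39558 peaks in iWAT, also at 20 genes. Peaks were named in either table for 26 genes, and the tables together name 17915 genes.

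All mice were C57BL/6 and carried floxed alleles of BAF60a (gene symbol Smarcd1), which encodes a subunit of SWI/SNF, a complex that remodels nucleosomes. Controls had these alleles alone (flox), whereas adipocyte-specific knockouts (AKO) also carried an Adiponectin-Cre transgene, which is active in fat cells. Leukocytes in AKO tissue are therefore not the cells in which Cre is driven. BAT came from 3 mice of each genotype, frozen singly; their age and housing temperature are not given for this assay in the sources used here. For iWAT, pads of 6 cold-acclimated mice of each genotype were pooled and the pool was divided into 3 aliquots. Cold acclimation was done at 6 to 8 months of age, with 7 days at 10 °C at the end. The spread between iWAT samples is thus a spread between aliquots of 1 pool, and differences between the pools can hold differences between animals. The inguinal pad surrounds a lymph node, and whether the node was removed before this pooling is not given in the sources used here.

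Cxcr4 encodes the receptor for the chemokine CXCL12 and is carried by most leukocytes, in which it guides homing and retention. Ptprc encodes CD45, the phosphatase found on all nucleated blood cells. ATAC-seq marks DNA that the Tn5 transposase can reach, mainly promoters and enhancers, and in whole tissue each nucleus contributes, so that an enhancer open only in leukocytes is read from the minority of nuclei that are leukocytes. In such bulk samples, fewer cells of a type and less accessibility in each of these cells cannot be told apart. In adipose tissue macrophages are the main resident leukocytes, and lymphocytes are scarcer outside the lymph node. Bcl6, a transcriptional repressor of germinal centre B cells, is also expressed in adipocytes.

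Total reads in peaks ranged from 6336670 to 27500738 in BAT and from 4066720 to 6691161 in iWAT. The library of BAT AKO mouse 2 was the shallowest of its tissue (median of 70 reads per peak, against 97 to 226 in the others). It was high at weak peaks, as described below. Of 2 BAT peaks assigned to Smarcd1, the one inside the gene held 136, 201 and 185 normalized reads in flox mice and 23.7, 57.9 and 26.9 in AKO mice (log2 fold change -2.98 ± 0.27, SE; limma adjusted p = 0.269, DESeq2 adjusted p = 4.05e-11), while the start site peaks had log2 fold changes of 0.19 ± 0.20 in BAT and 0.11 ± 0.15 in iWAT. Which exons the floxed alleles remove is not given in the sources used here. Peaks were assigned to 11 of 11 adipocyte genes in both tissues and to 3 and 2 of 7 skeletal muscle genes in BAT and iWAT.

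Many lineage-defining lymphocyte genes had no peak. Among 7 B cell genes, Cd79a, Cd79b, Ms4a1 (CD20) and Spib had no peak in either tissue, and among 8 T cell genes the same was true of Cd3e, Cd3g, Cd4, Cd8a and Lck. Of the 15 myeloid genes, Cd68, Lyz2 and Fcgr1 had none. These 12 genes thus gave no measurement at their own symbol, although peaks over 2 of them, Lck and Spib, carry the symbol of a neighbouring gene. By assigned symbol, peaks in both tissues were found for 14 genes, in BAT alone for 6 (Pax5, Cd22, Ciita, Mrc1, Cd163, C1qa) and in iWAT alone for 6 (Ptprc, Cd74, Cd3d, Csf1r, Itgam, Itgax). Over Pax5 and Mrc1, iWAT peaks carry the symbol of another gene. A single gene, Bcl6, supplied 37 of 79 peaks in BAT and 14 of 49 in iWAT.

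**Figure D1:**
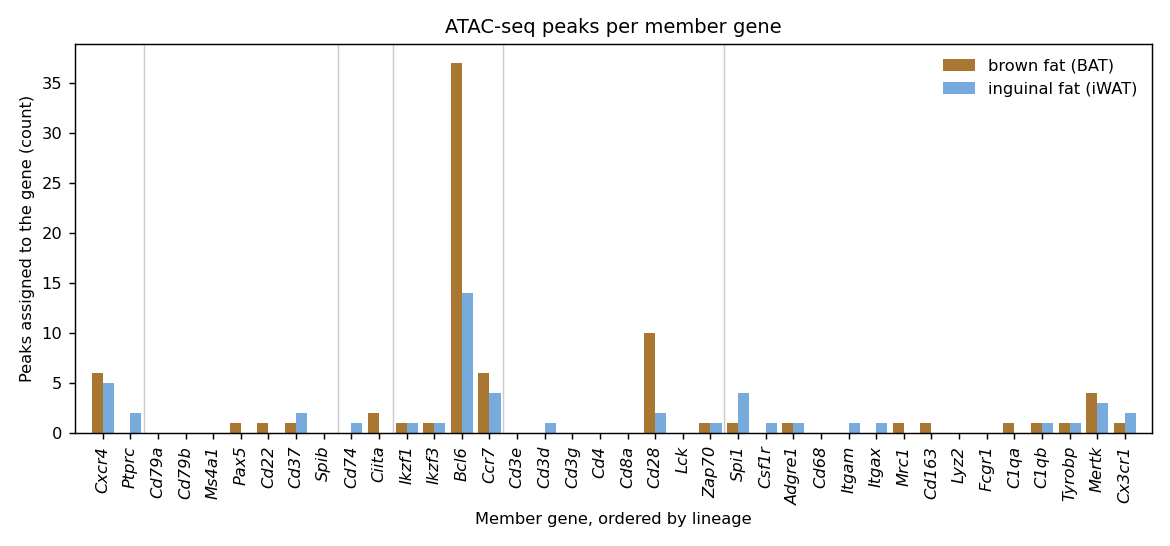
Number of ATAC-seq peaks assigned to each of the 38 genes (vertical axis, count) in BAT (brown bars) and iWAT (blue bars), with genes ordered by lineage and grey lines between lineages. Bcl6 stands out with 37 and 14 peaks, Cd28 has 10 in BAT, and 12 genes have none.

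The share of peaks found in both depots was as follows. In BAT, 29 of 79 (36.7%, 95% Wilson interval 26.9 to 47.7) overlapped an iWAT peak by at least 1 base, against 53.8% of all BAT peaks. In iWAT, 29 of 49 member peaks (59.2%, interval 45.2 to 71.8) overlapped a BAT peak, against 80.5% of all. The intervals cover counting error only. Member peaks in iWAT had a median of 50.7 normalized reads against 70.0 over all peaks, whereas in BAT the medians were 114 and 125. Depth differed between the tables, and its part in these shares was not tested.

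The sequences shown here are those of the iWAT peaks that a count test called lower in AKO, together with 2 promoters. For Cxcr4 and the upstream peak of Ptprc, the middle 300 bases are given. All peak sequences are the plus strand of mm10, whereas the genes Cxcr4, Ptprc and Ccr7 lie on the minus strand. Capitals mark the letters GAGGAA, the core bound by the ETS factor PU.1, and TGTGGT, the core bound by RUNX factors, each searched on both strands and neither overlapping the other. PU.1, encoded by Spi1, and RUNX factors are regulators of myeloid and lymphoid enhancers.
Cxcr4, 22.3 kb upstream of the start site, chr1:128614488-128614787: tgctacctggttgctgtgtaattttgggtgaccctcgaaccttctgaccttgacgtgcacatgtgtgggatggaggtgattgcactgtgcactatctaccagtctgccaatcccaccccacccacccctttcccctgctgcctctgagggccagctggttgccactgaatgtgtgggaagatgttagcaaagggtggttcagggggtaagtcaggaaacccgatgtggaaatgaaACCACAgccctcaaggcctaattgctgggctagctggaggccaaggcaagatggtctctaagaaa
Ptprc, 16.9 kb upstream, chr1:138192010-138192309: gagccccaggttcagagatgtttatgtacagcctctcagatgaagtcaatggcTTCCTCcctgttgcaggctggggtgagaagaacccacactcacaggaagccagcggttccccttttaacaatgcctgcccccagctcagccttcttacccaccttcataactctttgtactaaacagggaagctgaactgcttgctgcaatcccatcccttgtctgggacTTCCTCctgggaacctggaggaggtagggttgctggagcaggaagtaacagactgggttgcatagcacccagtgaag
Ptprc, intron, chr1:138136465-138136671: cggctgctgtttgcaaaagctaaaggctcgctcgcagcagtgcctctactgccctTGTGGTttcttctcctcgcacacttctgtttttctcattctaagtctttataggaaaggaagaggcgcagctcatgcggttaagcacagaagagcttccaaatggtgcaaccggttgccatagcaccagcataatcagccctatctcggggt
Ccr7, 34.4 kb upstream, chr11:99189351-99189539: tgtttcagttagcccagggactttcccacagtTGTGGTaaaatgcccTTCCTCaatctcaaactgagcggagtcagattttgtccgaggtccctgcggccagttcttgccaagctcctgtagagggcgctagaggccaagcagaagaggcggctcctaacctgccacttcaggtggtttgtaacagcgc
The Cxcr4 element held 1 RUNX match and no PU.1 match, the upstream Ptprc element 2 PU.1 matches, the Ptprc intron element 1 RUNX match, and the Ccr7 element 1 of each. Matches of this length are common: GAGGAA was present in the middle 300 bases of 38.8% of iWAT member peaks and 27.7% of all iWAT peaks, and TGTGGT in 16.3% and 17.96%. In BAT the shares were 25.3% and 26.9% for GAGGAA, and 17.7% and 18.4% for TGTGGT.

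The promoters of 2 genes whose peaks are described below were taken from RefSeq (build GRCm38.p6), each a window of 300 bases around the start, mostly before it, written in the direction of the gene. Promoter entries matched 25 of the 38 symbols, with 31 promoters.
Cxcr4 promoter, chr1:128592250-128592549, minus strand: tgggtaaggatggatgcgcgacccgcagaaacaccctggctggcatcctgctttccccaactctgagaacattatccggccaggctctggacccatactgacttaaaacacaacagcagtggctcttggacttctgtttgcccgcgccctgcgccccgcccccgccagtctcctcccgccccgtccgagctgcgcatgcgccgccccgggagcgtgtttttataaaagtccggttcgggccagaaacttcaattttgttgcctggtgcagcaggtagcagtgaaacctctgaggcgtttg
Ikzf1 promoter, chr11:11685675-11685974, plus strand: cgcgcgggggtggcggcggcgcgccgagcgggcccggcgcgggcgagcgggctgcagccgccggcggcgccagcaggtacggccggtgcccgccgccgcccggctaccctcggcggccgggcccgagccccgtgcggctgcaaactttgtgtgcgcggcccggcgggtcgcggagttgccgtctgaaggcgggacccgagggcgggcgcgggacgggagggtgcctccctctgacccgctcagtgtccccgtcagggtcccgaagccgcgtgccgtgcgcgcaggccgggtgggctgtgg
Neither held GAGGAA or TGTGGT on either strand. The Ikzf1 promoter was 81.3% G and C and the Cxcr4 promoter 59.3%. Over the 31 promoters of these genes, 48.4% held GAGGAA, against 28.3% of all 32851 promoters, and 16.1% held TGTGGT, against 16.8%. Other motifs searched in the peaks were TGANTCA (AP-1), TTGCNNAA (C/EBP), CCCNNGGG (EBF) and AGGTCA (a nuclear receptor motif). AGGTCA was in 36.7% of BAT member peaks and 22.9% of all BAT peaks, but in 20.4% and 19.0% in iWAT, and TGANTCA in 2.53% of BAT member peaks against 8.72% of all.

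The question in both tissues was whether chromatin at these genes differed between AKO and flox. For each peak, log2(normalized reads + 1) was fitted with limma over the whole table, and a peak was called at an adjusted p under 0.1. In BAT the fit also held the score of each sample on the first principal component (PC1), as the study did. No peak was called by limma in either tissue, so the background in each direction was 0%. DESeq2 and edgeR were run on the recovered whole reads. Since few peaks pass these tests, peaks were also counted whose 3 AKO samples all lay below, or all above, the 3 flox samples.

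In iWAT most peaks of the receptor genes had fewer reads in AKO. The clearest member was the Cxcr4 element 22.3 kb upstream, whose sequence opens the set above (chr1:128613930-128615346). It held 187, 169 and 199.7 normalized reads in the flox aliquots and 109.5, 77.6 and 84.5 in the AKO aliquots. Every AKO aliquot lay far below every flox aliquot, and the mean was 0.488 times that of flox. The log2 fold change was -1.04 ± 0.17 (SE), with a limma adjusted p of 0.149, the smallest value of the table, which 216 peaks share. DESeq2 (adjusted p = 8.16e-05) and edgeR (adjusted p = 1.26e-05) called it lower. It was the only member peak called by DESeq2, against 0.63% of all tested iWAT peaks called lower and 0.546% called higher. With any one aliquot left out the log2 fold change stayed between -1.18 and -0.94.

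Another 3 of the 5 iWAT peaks of Cxcr4 lie near the gene, and 2 of them also did not overlap between genotypes. At the peak just upstream of the start (chr1:128592308-128593266, overlapping the promoter shown) flox aliquots had 96.9, 109 and 116 reads and AKO aliquots 78.4, 82.2 and 64.2. In the intron (chr1:128590815-128591477) the values were 80.5, 86.7 and 87.8 against 64.5, 55.9 and 69.5. Both sets were lower in all AKO aliquots, by less than at the upstream element: the log2 fold changes were -0.52 ± 0.15 (limma adjusted p = 0.205) and -0.42 ± 0.14 (limma adjusted p = 0.231). Neither was called by DESeq2 or edgeR. The downstream peak at 6.2 kb had 24.9, 26.7 and 43.9 reads against 41.5, 36.5 and 24.6, and the peak 118.9 kb upstream 14.3, 21.1 and 13.8 against 13.8, 17.1 and 16.0. At these 2 weak peaks the genotypes overlapped.

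In BAT the Cxcr4 peaks at and around the gene overlapped between genotypes. The 22.3 kb element (chr1:128613757-128615360) had 221, 237 and 252 reads in flox mice and 234, 259 and 210.1 in AKO mice, a log2 fold change of -0.17 ± 0.18 (limma adjusted p = 0.799). The peak over the start site had 171, 177 and 167 against 124, 174 and 177, and the one 5.8 kb downstream 204, 183 and 181 against 169, 189 and 129.5. AKO mice overlapped flox mice at all 3. The difference between the tissues was not tested, because the tables were normalized separately and differ in design.

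Of the remaining BAT peaks of Cxcr4, the one 211.6 kb upstream was higher in every AKO mouse, at 51.5, 98.5 and 56.6 reads against 23.0, 30.3 and 41.4 (log2 fold change 0.44 ± 0.17, limma adjusted p = 0.535, unadjusted p = 0.0373). The AKO mean was 2.18 times the flox mean, and the fit without PC1 gave 1.08. The peak 51.2 kb upstream had 35.5, 30.3 and 29.8 reads in flox against 29.9, 98.5 and 48.0 in AKO, and the peak 240.3 kb upstream 59.0, 73.9 and 60.8 against 49.5, 102 and 89.2. AKO mouse 2 was the highest sample at all 3 of these distant peaks. Summed over its 6 BAT peaks, Cxcr4 had 713, 732 and 732 reads in flox against 658, 921 and 711 in AKO.

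**Figure D2:**
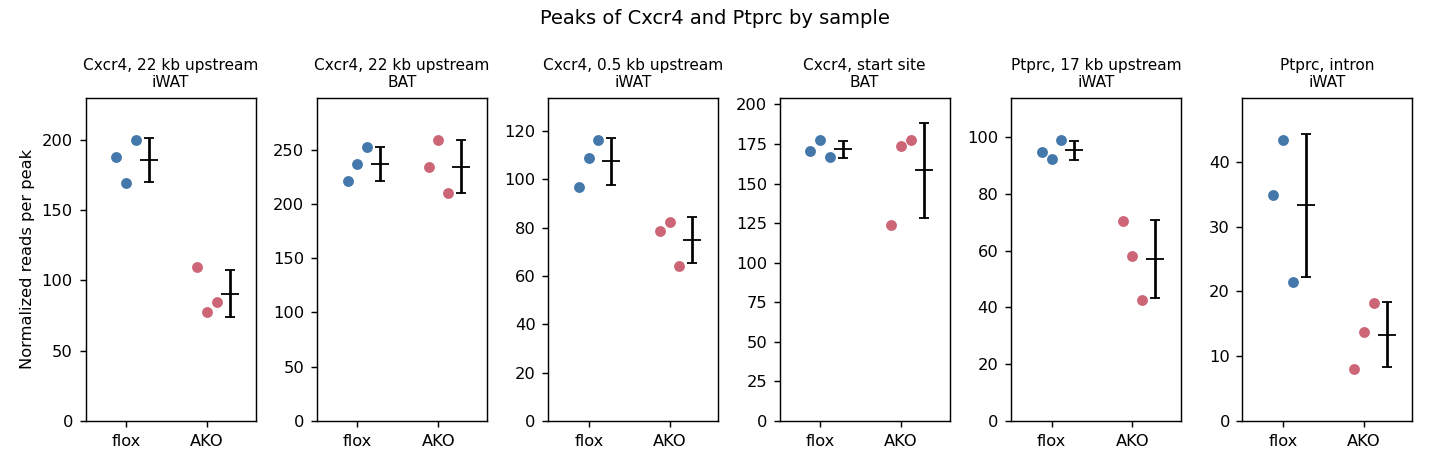
Normalized reads per peak (vertical axis, from 0) in each flox (blue) and AKO (red) sample, with the mean ± SD of 3 samples in black, for 4 Cxcr4 panels and 2 Ptprc panels. The iWAT panels separate by genotype (Cxcr4 22.3 kb upstream, means 185 and 90.5), whereas the BAT panels of the same elements overlap (means 237 and 234 at the upstream element).

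Ptprc had peaks in the iWAT table alone, 2 in number, and edgeR called both lower in AKO. The upstream peak (chr1:138191750-138192570) had 94.8, 92.3 and 99.0 reads in flox against 70.3, 58.2 and 42.8 in AKO. The intron peak (chr1:138136465-138136671) had 34.9, 43.4 and 21.5 against 8.07, 13.7 and 18.2. All AKO aliquots were below all flox aliquots at both. Log2 fold changes were -0.76 ± 0.19 (limma adjusted p = 0.179) and -1.27 ± 0.34 (limma adjusted p = 0.184). Their edgeR adjusted p-values were 0.0322 and 0.052, while DESeq2 gave 0.111 for the first and no adjusted p for the second, which it set aside for low counts. Together, the 7 peaks of Cxcr4 and Ptprc summed to 534, 548 and 582 reads in flox against 386, 341 and 319.7 in AKO, a ratio of 0.629.

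edgeR called 4 member peaks lower in iWAT and none higher, against 2.52% of all iWAT peaks lower and 2.15% higher: the Cxcr4 element, both Ptprc peaks and the Ccr7 peak 34.4 kb upstream. Ccr7 encodes the receptor that draws lymphocytes and dendritic cells into lymph nodes. Its upstream peak had 18.5, 32.2 and 37.9 reads in flox against 10.4, 13.7 and 15.0 in AKO, so the groups did not overlap (log2 fold change -1.08 ± 0.27, limma adjusted p = 0.177, edgeR adjusted p = 0.0997). The other 3 Ccr7 peaks in iWAT behaved differently. One, 19.8 kb downstream, was higher in every AKO aliquot, at 70.3, 54.8 and 56.7 against 46.3, 45.6 and 49.1 (log2 fold change 0.35 ± 0.15, limma adjusted p = 0.316), and the other 2 overlapped. In BAT the 6 Ccr7 peaks overlapped throughout, with log2 fold changes from -0.27 to 0.59.

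T cell genes gave 4 peaks in iWAT. The Zap70 peak, 35.8 kb downstream of the start of this kinase gene, had 15.7, 21.1 and 8.61 reads in flox against 4.61, 7.99 and 4.28 in AKO (log2 fold change -1.25 ± 0.34, limma adjusted p = 0.186). For Cd3d, a subunit of the T cell receptor complex, the exon peak had 41.3, 50.03 and 33.6 against 25.4, 17.1 and 32.1 (log2 fold change -0.75 ± 0.25, limma adjusted p = 0.239). Neither overlapped between genotypes, and neither was called by any tool. Cd28, the co-stimulatory receptor, had 2 distant iWAT peaks, 1 with a negative and 1 with a positive fold change, both overlapping. In a wider list of 18 T cell receptor signalling genes, 10 of 35 iWAT peaks were lower in all AKO aliquots (28.6%, against 10.3% of all iWAT peaks) and 3 were higher (8.57%, against 10.6%). edgeR called 2 of these 35 lower and none higher.

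The only B cell gene with peaks assigned to its own symbol in iWAT was Cd37, a tetraspanin of mature B cells. Cd37 had 2 peaks, and the weaker one, 0.1 kb from the start, had 16.4, 4.45 and 18.1 reads in flox against 6.92, 2.28 and 6.42 in AKO (log2 fold change -1.08 ± 0.54, limma adjusted p = 0.396), and the groups overlapped at this low depth; the other had 173, 146 and 159 against 143, 126 and 148. A list of 14 B cell receptor signalling genes had 12 iWAT peaks, 2 lower and 2 higher without overlap (16.7% each). Cd74, the invariant chain of MHC class II, had 1 peak over its start site, with 94.8, 111 and 99.0 reads against 94.5, 107 and 55.6 (log2 fold change -0.29 ± 0.25, limma adjusted p = 0.618). Among 9 genes of MHC class II and its control, 3 of 16 iWAT peaks were lower without overlap and none was higher, where the shares over all iWAT peaks were 10.3% and 10.6%.

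Taken singly, the myeloid peaks overlapped between genotypes in iWAT. None of the 15 peaks at 9 myeloid genes differed without overlap, where 10.3% of all iWAT peaks were lower and 10.6% higher. Fitted log2 fold changes ran from -1.13 to 0.46 with a median of -0.08. The smallest p belonged to Csf1r, the receptor for macrophage colony-stimulating factor, whose intron peak had 103, 106 and 90.4 reads in flox against 98.0, 79.9 and 67.4 in AKO (log2 fold change -0.29 ± 0.17, limma adjusted p = 0.463). The start site peak of Mertk, a receptor for apoptotic cells, had 376, 346 and 347 reads against 327, 329.9 and 355. The peak at the start of C1qb, a complement gene of macrophages, had 28.5, 24.5 and 19.8 against 6.92, 22.8 and 32.1. A separate list of 20 macrophage and monocyte genes had 44 iWAT peaks, of which 3 were lower (6.82%) and 5 higher (11.4%) without overlap. Its median log2 fold change was 0.04. The summed reads of the 15 member peaks were 989 to 1001 in flox and 923 to 970.4 in AKO, a ratio of 0.948. Every AKO sum thus lay below every flox sum. The remaining myeloid peaks in iWAT, those of Spi1, Adgre1, Itgam, Itgax, Tyrobp and Cx3cr1, all had limma adjusted p-values of 0.467 or more.

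Over all 49 iWAT member peaks, 9 were lower in every AKO aliquot (18.4%, against 10.3% of all iWAT peaks) and 3 were higher (6.12%, against 10.6%). With at least 10 reads required in every sample, 6 lower and 3 higher peaks remained. The Ptprc intron, upstream Ccr7 and Zap70 peaks fell below that limit. An unadjusted limma p under 0.05 was reached by 8 lower peaks, against 7.42% of the table, and by 2 higher peaks, against 7.61%. The median log2 fold change was -0.15, against 0.00 over all peaks. Receptor and T cell genes held 7 of the 9 lower peaks. Ikzf1 and Ikzf3, which encode lymphoid zinc finger factors, had 1 peak each, overlapping, with 299, 292 and 253 against 282, 236 and 244 reads over the start of Ikzf1. Lists of other cell types gave these counts: of 40 adipocyte gene peaks 6 were lower and 5 higher without overlap, of 17 endothelial gene peaks 3 and 2, of 21 stromal gene peaks 3 and 1, of 18 mural gene peaks 1 and 2, and of 34 plasma and germinal centre gene peaks 4 and 3. The NK, mast and dendritic cell list had 2 and 1 of 16, and the neutrophil list 1 and 1 of 5. Schwann gene peaks gave 1 and 0 of 6, epithelial 2 and 2 of 7, and skeletal muscle 0 and 0 of 2. Summed reads in AKO were 1.08 times flox for the NK, mast and dendritic list and 0.863 times for the Schwann list. Over all members this ratio was 0.878. The summed reads of the adipocyte list ranged from 5704 to 6926 in flox and from 5690 to 6449 in AKO. Whether the share of leukocytes or of lymph node tissue differed between the pools was not tested.

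**Figure D3:**
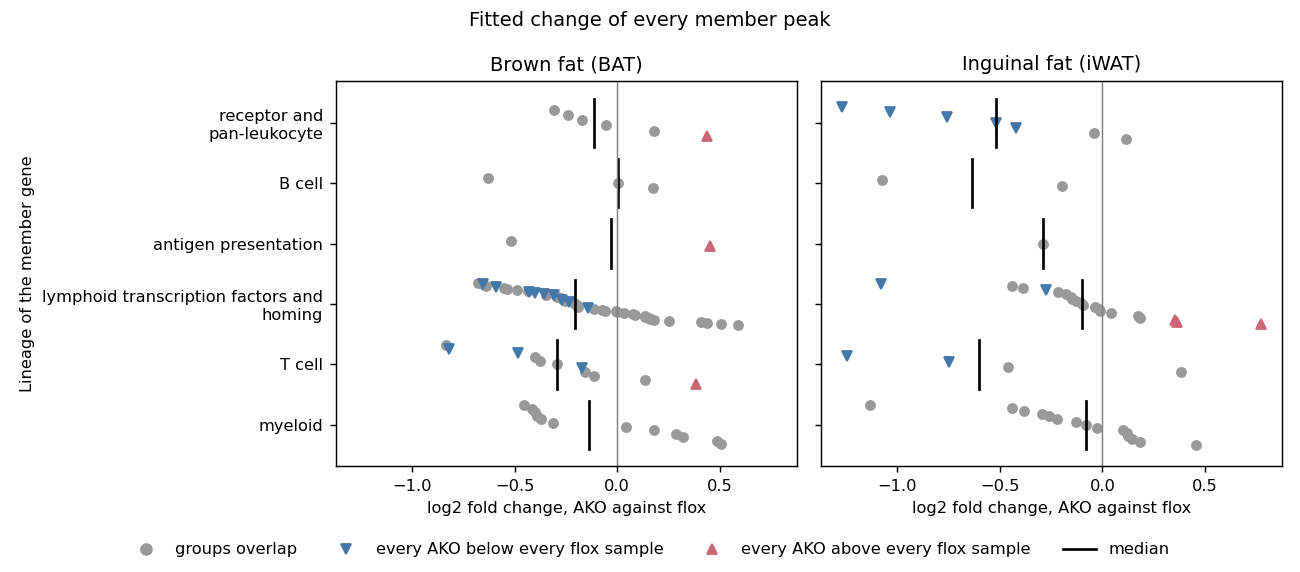
Fitted log2 fold change of AKO against flox (horizontal axis) for each member peak, by lineage of the gene, in BAT (left, 79 peaks) and iWAT (right, 49 peaks). Downward blue and upward red triangles are peaks whose 3 AKO samples all lay below or above the 3 flox samples, grey circles overlap, and black bars are medians. In iWAT 5 of 7 receptor peaks are blue and none of 15 myeloid peaks is, against 10.3% of all iWAT peaks.

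In BAT the lower peaks were assigned to Bcl6 and Cd28. Assignment of a distant peak to a symbol does not show that it acts on that gene, or that it is open in that cell type. Of 79 member peaks, 12 were lower in every AKO mouse (15.2%, against 8.84% of all BAT peaks), 9 of Bcl6 and 3 of Cd28, and 3 were higher (3.8%, against 8.77%), namely the Cxcr4 peak 211.6 kb upstream, Ciita and Zap70. Without Bcl6 and Cd28 there were none lower and 3 higher among 32 peaks. Neither DESeq2 nor edgeR called a member peak, where the table had 0.298% lower and 0.11% higher by DESeq2 and 0.114% and 0.029% by edgeR. The smallest adjusted p of a member was 0.48 by limma, 0.247 by DESeq2 and 0.239 by edgeR. An unadjusted limma p under 0.05 was reached by 5 lower and 3 higher member peaks, against 5.59% and 3.46% of the table. DESeq2 gave no adjusted p for 21 of the 79.

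Bcl6 had 37 BAT peaks, 27 of them more than 10 kb upstream and up to 194.6 kb away. In the fit, 24 of these 27 had a negative log2 fold change (median -0.27), against 49.1% of all BAT peaks. The 27 are neighbours read in the same mice, so they are not independent observations. Of the 27, 7 were lower without overlap, against 8.84% of all BAT peaks. The peak with the lowest p among peaks that did not overlap, 150.5 kb upstream (chr16:24139035-24139571), had 409.7, 372 and 423 reads in flox against 299.99, 265 and 236 in AKO (log2 fold change -0.59 ± 0.20, limma adjusted p = 0.504). A nearby peak 135.8 kb upstream was very even in flox, at 561, 559 and 567, and lower in AKO, at 424, 386 and 423 (log2 fold change -0.40 ± 0.17, limma adjusted p = 0.557). The peak with the smallest p of all, 162.2 kb upstream, overlapped, at 73.2, 103 and 111 against 64.9, 119.7 and 81.6 (log2 fold change -0.65 ± 0.20, limma adjusted p = 0.48). Without PC1 its log2 fold change was -0.13.

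Near the gene itself, the start site peak of Bcl6 had 598, 511 and 464 reads in flox mice and 456, 309 and 385 in AKO mice. The peak 2.5 kb upstream had 150.5, 148 and 167 against 108, 56.0 and 84.4. Both were lower in all AKO mice, and the fit gave -0.14 ± 0.18 (limma adjusted p = 0.834) and -0.66 ± 0.28 (limma adjusted p = 0.555), whereas the fit without PC1 gave -0.46 and -0.94. The 6 peaks inside the gene had fitted log2 fold changes from 0.14 to 0.51, opposite in sign to most upstream peaks, but without PC1 in the fit 4 of the 6 were negative. Upstream, 22 of 27 were negative without it. The adipocyte list, given beside this, had 35 of 78 BAT peaks lower without overlap (44.9%, against 8.84% of all BAT peaks) and 3 higher (3.85%, against 8.77%), and DESeq2 called 6 lower, against 0.298% of the table. In the fit with PC1, this list was negative at 75.6% of its peaks. Its part in the Bcl6 values was not tested.

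In iWAT, 14 peaks were assigned to Bcl6, and 13 of them overlapped a BAT peak of the gene. One, 177.3 kb upstream, was lower in all AKO samples of both tissues, at 159, 159 and 170.4 against 149, 132 and 123 in iWAT, and at 712, 740.4 and 825 against 631, 494 and 661 in BAT. It was the only member peak that did not overlap between genotypes in both tissues in the same direction. The intron peaks at 7.3 kb and 15.0 kb were higher in all AKO aliquots, with log2 fold changes of 0.36 ± 0.17 and 0.78 ± 0.27 (limma adjusted p = 0.379 and 0.256). The iWAT start site peak had 109.8, 73.4 and 118 reads in flox against 66.9, 81.1 and 69.5 in AKO.

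**Figure D4:**
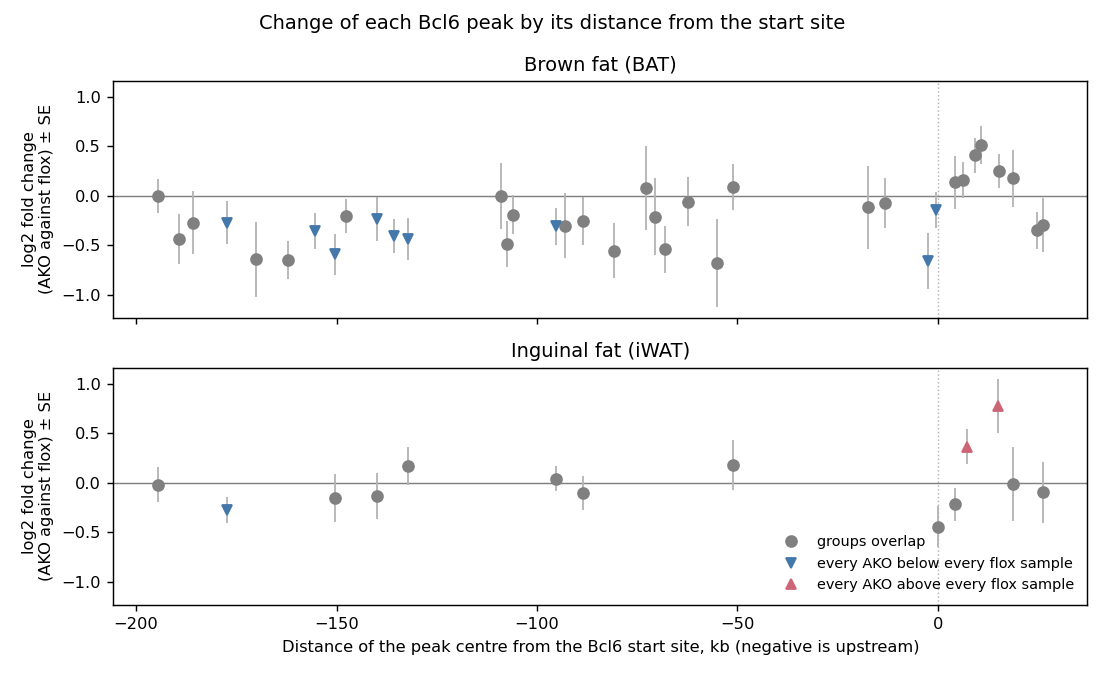
Fitted log2 fold change ± SE of each Bcl6 peak (vertical axis) against the distance of its centre from the start site in kb (horizontal axis, negative is upstream), in BAT (37 peaks, top) and iWAT (14 peaks, bottom). Of 27 BAT peaks more than 10 kb upstream, 24 are negative, against 49.1% of all BAT peaks. These neighbouring peaks come from the same mice and are not independent. The 6 inside the gene are positive in the fit with PC1, of which 4 are negative without it. Triangles mark peaks whose genotypes did not overlap.

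Cd28 had 10 BAT peaks, none within its body, and 9 had a negative log2 fold change in the fit with PC1, against 49.1% of all BAT peaks. Some of these signs depended on that term. Without PC1, the peaks 83.9 kb upstream, 30.2 kb upstream and 58.0 kb downstream went from negative to 0.11, 0.07 and 0.11. These peaks were read in the same mice and are not independent observations. The lowest p was that of a peak 63.2 kb downstream of the start (chr1:60809231-60809802), at 176, 218 and 286 reads in flox against 164, 145 and 130.5 in AKO (log2 fold change -0.82 ± 0.25, limma adjusted p = 0.481). Without flox replicate 3 it was -0.49. A peak 66.9 kb downstream (129, 143 and 163 against 123, 90.8 and 95.9) and one 77.4 kb upstream (429, 436 and 395 against 394, 294 and 317) also did not overlap. In iWAT the peak at that last place, 37.8, 34.5 and 53.4 against 50.7, 54.8 and 56.7, overlapped and had a fold change of the other sign.

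The library of BAT AKO mouse 2 was high at weak member peaks of many lineages. Of 34 member peaks with a mean under 100 normalized reads, it was the highest of the 6 samples at 19 (55.9%), where the same library was highest at 43.6% of all BAT peaks that weak. Its median ratio to the mean of the other 5 samples was 1.40 at these member peaks and 1.21 at all weak peaks. At member peaks with a mean of at least 100 it was the highest at 4 of 45 (8.89%), against 19.6% of all BAT peaks that strong. Without Bcl6 and Cd28 it was the highest at 12 of 18 weak peaks (66.7%) and 3 of 14 strong ones (21.4%). PC1 held 55.6% of the variance and ran between 2 samples. AKO mouse 2, the shallowest library, scored 112, and flox mouse 1, the deepest, scored -98.2. The other samples scored from -41.8 to 14.6. At all weak BAT peaks, flox mouse 1 had a median ratio of 0.833.

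Mouse 2 was also the highest sample at 2 start site peaks with a mean above 100 reads, which belong to those 4 of the 45. At Ikzf1, which encodes the lymphoid factor Ikaros and whose G and C rich promoter is shown above, the start site peak had 282, 281 and 369 reads in flox mice and 281, 603 and 353 in AKO mice. Tyrobp, the adaptor DAP12 of myeloid and NK receptors, had 46.5, 87.2 and 128 over its start against 73.2, 216 and 119. The other 2 AKO mice lay within the flox range at both. Weak peaks of Ciita and Pax5 give the size of the pattern. At Ciita, the master regulator of MHC class II genes, the peak 0.3 kb from the start had 6.27, 13.3 and 33.6 against 16.5, 83.1 and 24.0, and the exon peak at 21.7 kb had 12.5, 25.1 and 16.8 against 26.8, 69.5 and 31.7. The second was higher in all AKO mice. Pax5, the B cell identity factor, had 9.93, 13.3 and 27.2 against 12.4, 63.7 and 20.1.

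Fold changes at these genes depend on the PC1 term. For the first Ciita peak the fit with PC1 gave a log2 fold change of -0.52 ± 0.19 (limma adjusted p = 0.522) although the AKO mean was 2.32 times the flox mean, and the fit without PC1 gave 1.12. For Pax5 the values were -0.63 ± 0.28 (limma adjusted p = 0.562) and 0.69. Of the 79 member peaks, 25 changed sign between these fits. Sums over lineages in mouse 2 were taken as a ratio to the mean of the other 5 samples. The ratios were 3.69 for antigen presentation (2 weak Ciita peaks), 1.68 for B cell genes (3 peaks) and 1.30 for the receptor group (6 peaks). T cell genes gave 0.857 (11 peaks, 10 of Cd28) and myeloid genes 0.971 (12 peaks). Among the wider lists, B cell receptor signalling gave 1.37, T cell receptor signalling 1.19, MHC class II 0.965, and macrophage and monocyte genes 0.962. The MHC class II and T cell lists thus differed from the member genes of those lineages. The skeletal muscle list gave 1.53 and the adipocyte list 0.684. The part of tissue composition and of depth in these values was not tested.

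**Figure D5:**
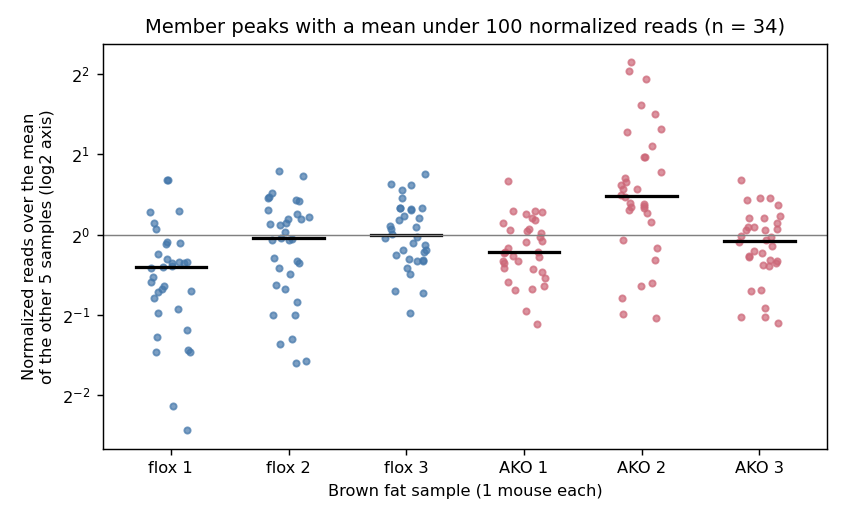
Ratio of each BAT sample to the mean of the other 5 (vertical log2 axis) at the 34 member peaks with a mean under 100 normalized reads, for flox mice 1 to 3 (blue) and AKO mice 1 to 3 (red). Each point is a peak and black bars are medians; AKO mouse 2 has a median of 1.40, and the other 5 samples have medians from 0.753 to 0.994.

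The remaining BAT members overlapped between genotypes, except Zap70, whose peak 42.7 kb downstream was higher in AKO (37.1, 38.6 and 32.6 against 25.6, 30.3 and 24.6; log2 fold change 0.38 ± 0.20, limma adjusted p = 0.617). In iWAT a different Zap70 peak was the lower one given above. None of the 12 myeloid peaks in BAT separated the genotypes, where 8.84% of all BAT peaks were lower and 8.77% higher. The smallest p was that of the Spi1 intron peak, at 111, 103 and 85.4 against 129, 81.1 and 116 (log2 fold change 0.49 ± 0.18, limma adjusted p = 0.522). Without PC1 this was 0.11, and the AKO mean was 1.09 times the flox mean. C1qb and C1qa, complement genes of macrophages, had weak peaks with 9.93, 8.87 and 24.6 against 22.7, 27.0 and 29.7, and with 30.3, 20.7 and 66.0 against 48.5, 92.7 and 71.0. Mertk had 847, 778 and 693 over its start against 774, 547 and 667. Adgre1, Cx3cr1, Mrc1 and Cd163 had 1 peak each, all overlapping, with fitted log2 fold changes from -0.40 to 0.32. Cd22 and Cd37, B cell surface proteins, had 45.5, 54.7 and 62.1 against 54.6, 126 and 75.8, and 131, 112 and 164 against 146, 187 and 190.0. Ikzf3 had 156, 188 and 129 against 159.8, 151 and 139. Over the 12 myeloid peaks the sums were 1846 to 1948 in flox and 1739 to 1858 in AKO.

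Among the wider lists in BAT, none had a peak called by limma. The counts without overlap that follow stand beside shares of 8.84% lower and 8.77% higher over all BAT peaks. T cell receptor signalling genes had 0 of 49 peaks lower and 6 higher without overlap, B cell receptor signalling genes 2 lower and 6 higher of 27 (DESeq2 called 1 higher), and MHC class II genes 0 lower and 2 higher of 16. Genes of the CXCL12 receptor pathway, which includes the ligand gene Cxcl12 and signalling partners of the receptor, had 13 lower and 4 higher of 73 in BAT, where DESeq2 called 2 lower and edgeR 1. Macrophage and monocyte genes had 5 lower and 5 higher of 59, and endothelial genes 1 lower and 3 higher of 36. In iWAT the CXCL12 receptor pathway list had 6 lower and 5 higher of 48, where all iWAT peaks gave 10.3% and 10.6%, and DESeq2 called 1 lower.

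Some member peaks were found at the same place in both tissues. Of the 29 overlapping pairs, from 11 genes, 12 were negative in both, 3 positive in both and 14 of opposite sign. Bcl6 supplied 13 of the 29. No pair separated the genotypes in opposite directions.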

How the data were processed

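ATAC-seq was done on nuclei of frozen fat (3 flox and 3 AKO samples per tissue). Per the labels and methods, the authors mapped reads to mm10 with BWA 0.7.17-r1188, marked duplicates with Picard 2.8.14, kept autosomal reads, called broad peaks with MACS2 2.1.1.20160309, took the union of peaks found in at least 2 replicates (bedtools 2.27.1), counted reads per peak and assigned genes with HOMER. The deposited values are reads divided by a size factor, a coverage signal per peak. The 2 tables were normalized separately. Whole reads were recovered for 100% of values (tolerance 0.001). The deposited log2 fold change and p-value columns hold the comparisons of the authors (DESeq2 1.20.0) and were not used, and 0 other columns of samples were left out.

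The tests were limma 3.58.1 on log2(normalized reads + 1) over all peaks, with Benjamini-Hochberg adjustment over the table, and edgeR 4.0.16 (quasi-likelihood, TMM) and DESeq2 1.42.0 on recovered reads. BAT fits held PC1, as in the study. Fold changes on this scale understate those of weak peaks. P-values in iWAT measure the spread between aliquots. Positions are 1-based, and places come from GENCODE vM21 basic transcripts. Scripts were tested on simulated data. The members and lists were chosen with earlier results of these data known. Peaks given in full were those of Cxcr4, those called by a tool, start site peaks, and the peak of smallest p in each lineage and tissue; peaks of Bcl6, Cd22, Cd28, Cd37, Ikzf3, Ccr7, Cd3d, C1qa, C1qb, Zap70 and Ciita beyond these were added after their values were seen. Groups of 3 samples are too small for an outlier test.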

Additional observations from a re-analysis of the deposited data

How the results depend on the processing

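With limma, no member peak was called in either tissue under any alternative (total read scaling, cyclic loess, pseudocounts of 0.1 and 10, a minimum of 10 reads, a threshold of 0.05, PC1 in or out, each sample left out). DESeq2 called 1 and edgeR 4 lower member peaks in iWAT, at log2 fold changes of -1.04 for the Cxcr4 element in both tools, and -0.74, -1.29 and -1.15 in edgeR for Ptprc upstream, Ptprc intron and Ccr7. Of the counts without overlap in BAT, lower peaks numbered 12 of 79 in all and 2 of 19 within 10 kb of a start site. They numbered 3 of 42 without Bcl6 (7.14%) and 0 of 32 without Bcl6 and Cd28, against 8.84% of all BAT peaks. Higher peaks numbered 3 of 79 in all and 0 of 19 within 10 kb, against 8.77% of all BAT peaks. Without AKO replicate 2, 15 of 79 member peaks were lower and 6 higher, where 12.9% of all BAT peaks were lower and 11.4% higher. The settings without Bcl6, without Bcl6 and Cd28, DESeq2 without PC1, and the count without AKO replicate 2 were chosen after seeing the data. In iWAT, 3 of the 9 lower and 1 of the 3 higher peaks were among the 19 peaks within 10 kb. Without Bcl6, 8 of 35 were lower (22.9%) and 1 was higher (2.86%), and without Cd28 as well the counts were the same, of 33. The shares over all iWAT peaks were 10.3% and 10.6%. With at least 10 reads in every sample, 6 lower and 3 higher iWAT peaks remained. The subsets hold fewer peaks by construction. The BAT median of -0.20 was -0.0926 without PC1, -0.0826 in DESeq2 without PC1 and 0.0179 without Bcl6 and Cd28, and -0.26 to -0.169 with one mouse left out. The iWAT median of -0.15 was -0.22 with PC1, within 10 kb and without Bcl6, and -0.195 to -0.0722 with one aliquot left out, where -0.0722 was without AKO replicate 1. In iWAT, PC1 (33.8% of variance) separates the genotypes, so that term takes up the contrast.

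Reversed log2 fold changes were, in BAT without PC1, 1.12 for Ciita near the start (1.23 in DESeq2), 0.69 for Pax5 (0.93 in DESeq2) and 0.25 for Cxcr4 240.3 kb upstream (0.30 in DESeq2); the last was 0.048 without flox replicate 2 and ranged from -0.50 to 0.45 over samples left out. With a sample left out, Cxcr4 51.2 kb upstream ranged from -0.50 to 0.75 and its start site peak from -0.42 to 0.0648. With PC1 in iWAT, values were 3.04 for the first Cd37 peak, -4.26 for Cxcr4 6.2 kb downstream and 2.54 for the Ptprc intron peak. With an aliquot left out, Cxcr4 118.9 kb upstream ranged from -0.15 to 0.15 (0.041 without AKO replicate 1), and its 6.2 kb downstream peak from -0.0385 to 0.36. The cause of these reversals was not tested. Requiring 50% of both peaks to overlap left 29.1% of BAT and 46.9% of iWAT member peaks shared.

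Sample numbers recur across genotypes. Correlations of deviations of same-numbered samples were 0.49, 0.06 and -0.24 in BAT and -0.04, -0.05 and -0.06 in iWAT. Differently numbered BAT samples gave -0.54 to 0.48, so the numbers were not taken as pairs. With 3 samples per genotype, these correlations cannot exclude a pairing. With a replicate block the count of limma calls stayed 0 in both tissues, the medians were -0.21 and -0.15, and the Cxcr4 peak 240.3 kb upstream in BAT went to 0.37. Of the values of named peaks under alternatives, 329 kept their direction and side of the threshold, 5 passed it and 18 were reversed. Since limma called no member peak under any setting, the threshold was passed in DESeq2 and edgeR alone. A missing DESeq2 adjusted p was counted as keeping its side. The 329 therefore speak to direction and say little about the threshold. Depth limits weak peaks most: 10 of 49 iWAT member peaks got no DESeq2 adjusted p.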

Other observations

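Some peaks over member genes carry the symbol of a neighbour in the tables and were therefore outside the counts above. Over Pax5 lie 6 BAT and 4 iWAT peaks assigned to 5730488B01Rik. The BAT peak at chr4:44645190-44645664 had 76.8, 81.3 and 76.3 normalized reads in flox and 121.6, 129 and 134 in AKO, all AKO mice higher (log2 fold change 0.70 ± 0.18, limma adjusted p = 0.44), whereas the overlapping iWAT peak had 72.7, 65.6 and 75.7 against 72.6, 77.6 and 41.7. Of the 6 BAT peaks over Pax5, 3 were higher in every AKO mouse and none was lower, where 8.77% and 8.84% of all BAT peaks were. Over Lck, a T cell kinase with no peak of its own symbol, 1 peak per tissue is assigned to Mir8119, with 219, 236 and 264 against 270.1, 301 and 230.3 in BAT and 89.8, 113 and 56.8 against 73.8, 75.4 and 83.4 in iWAT, so the genotypes overlapped in both. Over Spi1, 2 peaks per tissue are assigned to Mybpc3. The one at chr2:91115063-91115575 in iWAT had 67.7, 91.2 and 81.8 reads against 100.3, 118 and 99.4, all AKO aliquots higher (log2 fold change 0.40 ± 0.16, limma adjusted p = 0.303). Spib and Ciita each have 1 such BAT peak, assigned to Mybpc2 and Dexi, and both overlapped. The annotated extent of Cx3cr1 spans several neighbouring genes, so peaks over it were left out here. Over Mrc1, 1 peak per tissue is assigned to Mir511, and the genotypes overlapped in both.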
